A study of Mus musculus with 8 samples.

Results

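The Slc25 genes encode the mitochondrial carrier family, the transport proteins that move metabolites, nucleotides and cofactors across the inner membrane of mitochondria. All genes of the deposited count table whose symbol is Slc25a followed by a number were taken, which gave 47 of 55421 genes. Of these, 46 had enough counts to enter the test, and Slc25a54 did not. The family was chosen by the values of 1 member: Slc25a22 was already known to differ in these libraries, among other ways in the interaction of Calhm2 deletion and disease. The differences of Slc25a22 are therefore described without a test, and counts of members that passed or did not overlap are over the other 45 tested genes.

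The RNA came from microglia, the macrophages of brain tissue, of C57BL/6 mice aged 6 months. There were 4 groups of 2 libraries: wild-type mice (WT), mice with a conditional knockout of the channel gene Calhm2 (cKO), wild-type mice with Alzheimer's disease (WT/AD), and mice with both the conditional knockout and Alzheimer's disease (cKO/AD). The labels name neither the Cre driver nor the disease model, and nothing in them ties the libraries of a group to different animals. P-values therefore only set a difference between groups against the scatter of these libraries, and that scatter may be technical. Calhm2 itself was low in both knockout groups: cKO held 96 and 107 counts against 216 and 239 for WT, and cKO/AD held 44 and 35 against 412 and 347 for WT/AD.

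A mitochondrial carrier spans the inner membrane and binds its substrate on one side before releasing it on the other. Because this membrane is otherwise closed to charged metabolites, the carriers link the enzymes of the matrix to those of the cytosol. They feed ADP and phosphate to ATP synthase, exchange citric acid cycle intermediates, and bring glutamate, aspartate, carnitine esters, cofactors and iron to the enzymes that use them. Slc25a22 encodes a glutamate carrier that brings glutamate into the matrix together with a proton, where glutamate dehydrogenase and transaminases use it.

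The libraries held 18218165 to 25774587 counts, and the cKO/AD pair stood apart. The first cKO/AD library had 18693 genes with a count against 22088 to 25988 in the other 7, and 4.73% of its counts were mitochondrially encoded against 1.37% to 2.36%. Levels also moved with the GC content of the transcript. Expressed genes were split into 4 equal classes by GC content. For the class with at least 54%, the median deviation from the mean of the 8 libraries was 0.71 and 0.538 (log2) for the WT/AD pair and -1.05 and -0.442 for the cKO/AD pair. For the class at or below 44.2% it was -0.421 and -0.269 for the first pair and 0.583 and 0.299 for the second. Values of the carriers between these groups are therefore given as counted. For the carriers that passed and for some others they are given again with the GC trend of each library removed. The 10 microglia markers had the highest summed level of the 8 marker lists in every library, at 40770 to 44620 CPM in WT and WT/AD, 26600 and 30220 CPM in cKO, and 17470 and 25080 CPM in cKO/AD. CPM is a gene's count divided by the TMM-scaled library total in megacounts, and TMM is edgeR's scaling for library composition.

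Slc25a22 (ENSMUSG00000019082.18) was high in WT/AD and low in cKO/AD. WT libraries held 2158 and 2066 counts of it, cKO libraries 1741 and 2754, WT/AD libraries 6597 and 5530, and cKO/AD libraries 243 and 438. On the CPM scale WT stood at 103 and 104, cKO at 86.3 and 121, WT/AD at 262 and 219, and cKO/AD at 13.8 and 19.5. Both WT/AD libraries lay above all others and both cKO/AD libraries below all others, while WT and cKO overlapped. The group means were 103 ± 1.07, 104 ± 24.5, 241 ± 30.5 and 16.7 ± 4.06 CPM in that order (SD, n = 2).

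The mean of Slc25a22 was 14.4-fold lower in cKO/AD than in WT/AD, 6.21-fold lower in cKO/AD than in cKO, and 2.33-fold higher in WT/AD than in WT. On the log2 scale the fitted differences were -3.85, -2.63 and 1.22, and cKO and WT differed by less than their spread. These comparisons share libraries: WT/AD and cKO/AD each enter more than 1 of them. After removal of the GC trend, WT stood at 87.2 and 85.1 CPM, cKO at 92.5 and 108, WT/AD at 154 and 145, and cKO/AD at 36.9 and 28.1. The order of the groups stayed the same except that both cKO libraries then lay above both WT libraries. The difference between cKO/AD and WT/AD was then -2.21 on the log2 scale. In bulk RNA, fewer cells of a type and less RNA per cell cannot be told apart.

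**Figure D1:**
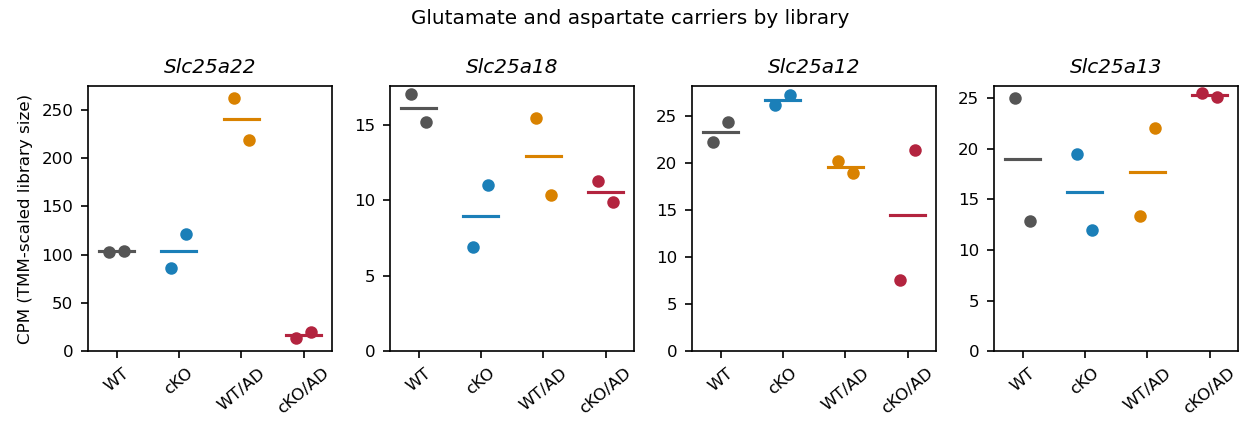
Level of the 4 glutamate and aspartate carrier genes in each library, in CPM on a linear axis that starts at 0 and differs between panels. Points are libraries and bars are group means (n = 2); Slc25a22 stood at 262 and 219 CPM in WT/AD and at 13.8 and 19.5 CPM in cKO/AD, while the 3 other carriers stayed between 6.89 and 27.2 CPM.

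The promoters of Slc25a22, Slc25a1 and Slc25a36 are shown. Among tested members above 5 CPM that passed in cKO/AD against WT/AD, Slc25a1 had the largest fall and Slc25a36 the largest rise. The windows run from 250 bases before to 50 bases after an annotated start, 5′ to 3′, from RefSeq on GRCm38.p6, and Slc25a22 has 3 annotated starts. Capitals mark matches to the motif searched for the factor SP1 (GGGCGG, either strand); NRF1 (by its consensus), GABPA (CCGGAAG) and ERR (TCAAGGTCA) were searched as well and gave no match here.
Slc25a22 first window, chr7:141437825-141438124, minus strand: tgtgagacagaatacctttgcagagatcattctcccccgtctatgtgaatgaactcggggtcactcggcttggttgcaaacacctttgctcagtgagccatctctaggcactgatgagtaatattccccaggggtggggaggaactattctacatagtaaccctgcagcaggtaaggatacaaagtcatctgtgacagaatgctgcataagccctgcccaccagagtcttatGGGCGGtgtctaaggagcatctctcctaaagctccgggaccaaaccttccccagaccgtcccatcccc
Slc25a22 middle window, chr7:141435326-141435625, minus strand: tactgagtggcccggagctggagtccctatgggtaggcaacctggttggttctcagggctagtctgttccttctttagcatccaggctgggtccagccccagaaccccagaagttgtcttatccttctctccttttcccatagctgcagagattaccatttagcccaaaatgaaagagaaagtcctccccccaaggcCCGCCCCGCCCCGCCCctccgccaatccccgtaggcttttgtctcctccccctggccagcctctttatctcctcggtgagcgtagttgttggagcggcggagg
Slc25a22 last window, chr7:141434545-141434844, minus strand: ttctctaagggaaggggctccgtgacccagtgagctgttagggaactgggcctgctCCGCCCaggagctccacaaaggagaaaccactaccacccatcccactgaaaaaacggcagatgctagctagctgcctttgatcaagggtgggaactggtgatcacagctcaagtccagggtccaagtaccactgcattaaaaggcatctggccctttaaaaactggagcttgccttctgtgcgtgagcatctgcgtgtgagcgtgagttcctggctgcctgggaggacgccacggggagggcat
Slc25a1, chr16:17928170-17928469, minus strand: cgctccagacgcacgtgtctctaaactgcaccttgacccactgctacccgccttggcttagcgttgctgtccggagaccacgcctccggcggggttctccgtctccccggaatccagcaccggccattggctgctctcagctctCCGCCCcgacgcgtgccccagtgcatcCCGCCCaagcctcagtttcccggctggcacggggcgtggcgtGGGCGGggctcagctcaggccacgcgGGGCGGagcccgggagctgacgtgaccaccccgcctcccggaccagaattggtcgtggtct
Slc25a36, chr9:97110992-97111291, minus strand: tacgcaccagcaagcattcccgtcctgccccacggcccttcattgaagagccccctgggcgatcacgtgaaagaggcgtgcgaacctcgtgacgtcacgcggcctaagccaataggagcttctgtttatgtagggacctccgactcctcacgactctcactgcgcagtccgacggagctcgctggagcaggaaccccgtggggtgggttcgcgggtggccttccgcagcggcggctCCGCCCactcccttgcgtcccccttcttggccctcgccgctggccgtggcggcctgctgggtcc
The Slc25a22 windows held 1, 3 and 1 matches to the SP1 motif in this order, that of Slc25a1 held 4 and that of Slc25a36 held 1. The GC content was 51.7%, 58% and 56.3% in the Slc25a22 windows, 69.3% in that of Slc25a1 and 66.7% in that of Slc25a36. The letters CG occurred 6, 10 and 8 times in the Slc25a22 windows against 30 times in that of Slc25a1 and 29 times in that of Slc25a36.

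Across the family, 36 genes had at least 1 promoter window, 46 windows in all. The SP1 motif was in 38 of the 46 (82.6%) and in 35.7% of all 32851 windows. The GABPA motif, which is found in promoters of many mitochondrial genes, was in 7 (15.2%) against 8.86% of all windows. The NRF1 motif was in 2 (4.35%, in Slc25a3 and Slc25a31) against 4.6%, and the ERR motif in 0 against 0.423%. The median GC content was 59.35% in the family's windows and 52.7% in all windows. A match describes letters only. Nothing was tested on these matches.

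Per length of exon, Slc25a22 took the 11th place of 47 carriers in WT and in cKO, the 5th in WT/AD and the 28th in cKO/AD. Its level was 17.2, 17.3, 40.1 and 2.78 CPM per kilobase in these groups. The carriers with the highest mean level per length were Slc25a11, Slc25a45, Slc25a5, Slc25a4 and Slc25a27. Slc25a11, the oxoglutarate and malate carrier of the malate-aspartate shuttle, led in WT, cKO and WT/AD at 92.6, 87 and 114 CPM per kilobase. In cKO/AD it stood at 57.9, with Slc25a5, an ADP/ATP carrier, at 61.8 CPM per kilobase. Among the 16 highest carriers of a group, the libraries of neighbours in the order overlapped for 7 of 15 pairs in WT, 12 in cKO, 11 in WT/AD and 14 in cKO/AD, so those neighbours did not differ beyond their spread. Slc25a11 lay clear of the next carrier in WT, cKO and WT/AD, while Slc25a22 overlapped both of its neighbours in WT/AD, Slc25a4 and Slc25a5. At the other end, 7 carriers had a mean under 1 CPM: Slc25a2, Slc25a21, Slc25a31, Slc25a41, Slc25a47, Slc25a48 and Slc25a54.

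**Figure D2:**
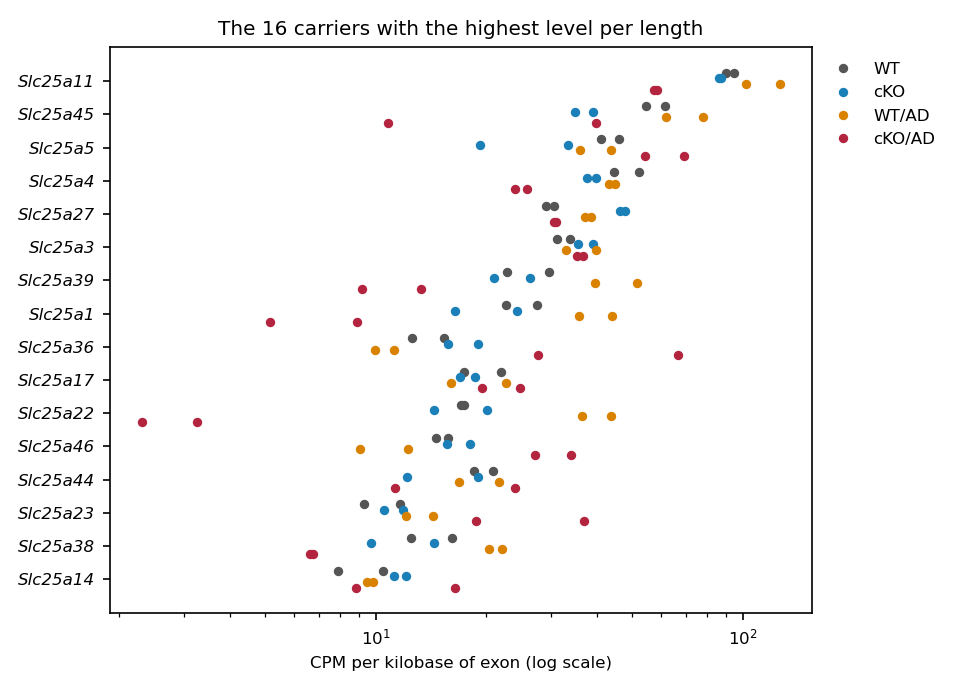
Level per kilobase of exon (CPM per kilobase, log axis) of the 16 carriers with the highest mean over the 4 groups, 1 point per library, coloured by group. Slc25a22 stood at 43.8 and 36.5 CPM per kilobase in WT/AD and at 2.3 and 3.26 in cKO/AD, and Slc25a11 was at or near the top in every group.

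The loss of Calhm2 in diseased mice is read from cKO/AD against WT/AD, and here carriers were called in both directions. Of the 45 members 2 rose and 8 fell (edgeR, adjusted p under 0.05 over all 22089 tested genes), and 35 did not pass. That is 4.44% and 17.8% of members against 7.82% of all tested genes that rose and 10.2% that fell. The libraries of the groups did not overlap for 11 members that were higher and 18 that were lower in cKO/AD (24.4% and 40% of 45), against 24.3% and 35.1% of all tested genes. The median log2 fold change was -0.13 over the 45 members and -0.14 over all tested genes. After removal of the GC trend 3 members rose and 0 fell, against 3.88% and 2.51% of all tested genes. By DESeq2 3 rose and 14 fell, and by limma-voom 3 and 10. Here and below, some counts stand without the share of all tested genes. These are counts by these tools, at an unadjusted p, with another filter, scaling or replicate block, in a fit of the compared groups alone, or with a library left out. They cannot be set against the edgeR shares. In an edgeR fit of these 2 groups alone, without the spread of WT and cKO, 0 of the 10 calls were kept, those of Slc25a36 and Slc25a46 included (adjusted p = 0.104 and 0.0905). Without the first WT/AD library 0 were kept as well, and without the second 5 were kept (Slc25a1, Slc25a11, Slc25a38, Slc25a39 and Slc25a46). Without the first cKO/AD library all 10 were kept and 3 added, and without the second all 10 were kept and 14 added. The call of Slc25a4 was lost without either WT library, and that of Slc25a34 without the second.

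**Figure D3:**
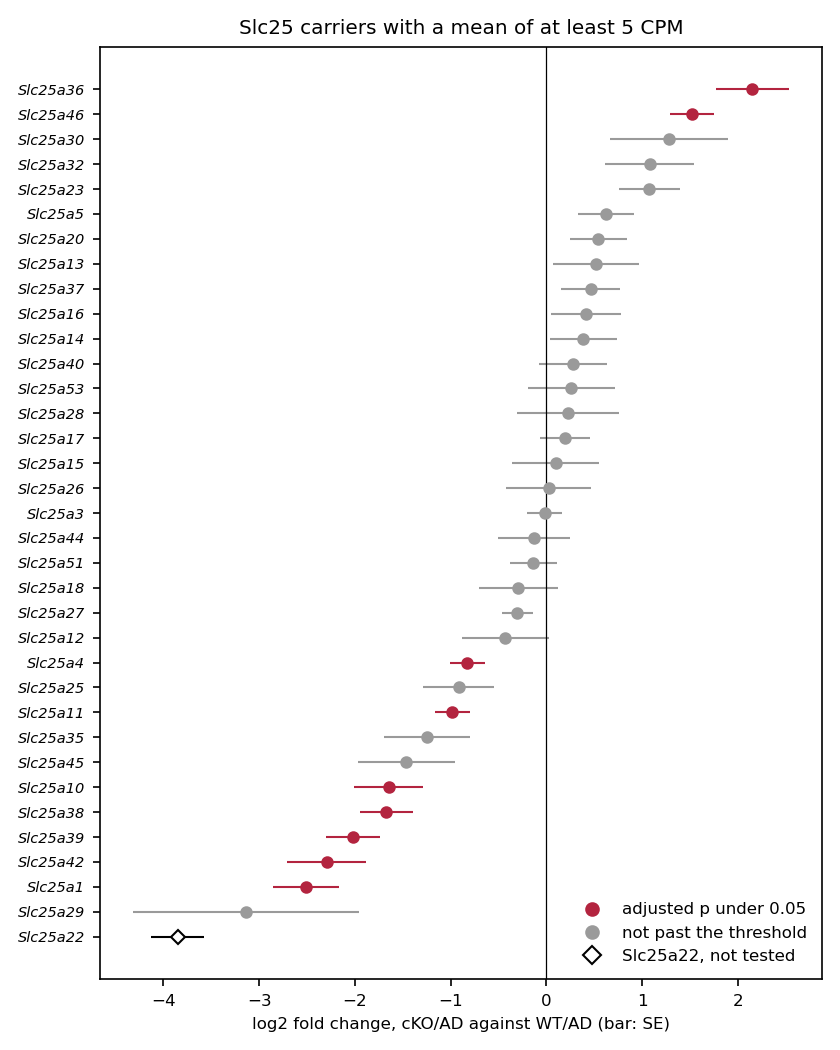
Log2 fold change of cKO/AD against WT/AD with its standard error for 35 of the 36 carriers with a mean of at least 5 CPM, sorted by size. Red points passed an adjusted p of 0.05 (edgeR), grey points did not, and the open diamond is Slc25a22, which was not tested; values run from -3.85 for Slc25a22 to 2.15 for Slc25a36.

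Among the glutamate and aspartate carriers, the closest relatives of Slc25a22 by substrate, no member passed the threshold. Slc25a18, which encodes the other glutamate carrier, stood at 15.5 and 10.4 CPM in WT/AD and 11.2 and 9.86 CPM in cKO/AD. Slc25a12, which encodes the aspartate-glutamate exchanger aralar, stood at 20.2 and 18.9 CPM in WT/AD and 7.61 and 21.4 CPM in cKO/AD. Slc25a13, which encodes citrin, the other aspartate-glutamate exchanger, stood at 13.3 and 22 CPM in WT/AD and 25.5 and 25.2 CPM in cKO/AD. The groups overlapped for Slc25a18 and Slc25a12, and both cKO/AD libraries were higher for Slc25a13. The log2 fold changes were -0.29 (SE 0.415), -0.43 (SE 0.455) and 0.52 (SE 0.445), with edgeR adjusted p = 0.663, 0.544 and 0.449. With the GC trend removed they were 0.60, -0.68 and 0.36 (edgeR adjusted p = 0.433, 0.365 and 0.648), so the direction of Slc25a18 turned.

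Of the 4 tested carriers of citric acid cycle intermediates and related acids, 3 fell in cKO/AD, where 10.2% of all tested genes fell. With the GC trend removed 0 of the 4 fell, and so few genes give no result about the group. Slc25a1, the citrate carrier that supplies carbon for fatty acid and sterol synthesis, stood at 95.4 and 77.5 CPM in WT/AD and 11.1 and 19.2 CPM in cKO/AD. Slc25a11 stood at 268 and 216 CPM in WT/AD and 121.5 and 124 CPM in cKO/AD, and Slc25a10, the dicarboxylate carrier, at 36.5 and 24 CPM and at 11 and 8.34 CPM. In each of these 3 both cKO/AD libraries lay below both WT/AD libraries. The log2 fold changes were -2.51 (SE 0.345), -0.98 (SE 0.179) and -1.64 (SE 0.36), with edgeR adjusted p = 0.00689, 0.0117 and 0.0201. After removal of the GC trend they were -0.64, 0.02 and 0.64, and none passed (edgeR adjusted p = 0.126, 0.979 and 0.408). Slc25a11 then lay near 0, and the sign of Slc25a10 turned. Slc25a21, the oxodicarboxylate carrier, had 7 and 33 counts in WT/AD and 0 in both cKO/AD libraries, at least 10.6-fold lower when 3 counts are taken as the limit of the cKO/AD pair (edgeR adjusted p = 0.104). Some exon bases of Slc25a11 overlap Rnf167 on the opposite strand in the GENCODE annotation, and without a stated strand setting reads there cannot be told apart.

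Carriers of cofactors, nucleotides and glutathione included both falls and a rise. Slc25a39, which brings glutathione into mitochondria, stood at 142 and 109 CPM in WT/AD and 25.3 and 36.7 CPM in cKO/AD. Slc25a42, which carries coenzyme A, was at 28.6 and 29.1 CPM and at 7.04 and 4.73 CPM. Both genes were lower in both cKO/AD libraries, with log2 fold changes of -2.02 (SE 0.282) and -2.29 (SE 0.417) and edgeR adjusted p = 0.00689 and 0.0116. Slc25a36, which carries pyrimidine nucleotides for mitochondrial DNA and RNA, rose from 95.4 and 107.5 CPM to 638 and 265 CPM (2.15, SE 0.384, edgeR adjusted p = 0.0109). Both cKO/AD libraries were above both WT/AD libraries, and the first was 2.41 times the second. With the GC trend removed, Slc25a36 had a log2 fold change of 1.36 and kept the call (edgeR adjusted p = 0.0473). Slc25a39 and Slc25a42 then stood at -0.01 and -0.82 and did not pass (edgeR adjusted p = 0.994 and 0.344). Of the 11 carriers in this group 8 did not pass, among them Slc25a32, Slc25a33, Slc25a26 and the NAD carrier Slc25a51.

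Among the adenine nucleotide and phosphate carriers, the ADP/ATP carrier Slc25a4 fell from 105.5 and 102 CPM to 56.4 and 60.7 CPM (-0.82, SE 0.182, edgeR adjusted p = 0.0206). The paralog Slc25a5 stood at 59.5 and 72.3 CPM in WT/AD and at 114 and 89.3 CPM in cKO/AD (0.63, SE 0.294, edgeR adjusted p = 0.176). The groups did not overlap for either gene, and the paralogs lay on opposite sides of 0. Slc25a3, which brings in the phosphate for ATP synthesis, was at 184 and 222 CPM and at 196 and 204 CPM, so its groups overlapped. Slc25a4, once the GC trend was removed, stood at -0.29 (edgeR adjusted p = 0.363) and Slc25a5 at 0.65 (edgeR adjusted p = 0.223). A processed Slc25a5 copy in the table held 2 counts over the 8 libraries.

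Slc25a23 was the only carrier above 5 CPM with a GC content of at least 54% that had a positive fold change. It encodes a calcium-regulated carrier that exchanges ATP-magnesium for phosphate, and its transcript has a GC content of 56.4%. It stood at 75.8 and 63.9 CPM in WT/AD and at 195 and 99.6 CPM in cKO/AD, with both cKO/AD libraries higher. The log2 fold change of 1.08 (SE 0.32) did not pass as counted (edgeR adjusted p = 0.0533). It was 2.69 with the GC trend removed, where it passed (edgeR adjusted p = 0.0284). The corrected levels were 48.1 and 44.8 CPM in WT/AD and 467 and 134 CPM in cKO/AD, so the first cKO/AD library weighed most in that value. Slc25a25, its calcium-regulated relative, was at 49 and 54.1 CPM and at 24.3 and 30.4 CPM (edgeR adjusted p = 0.126). Slc25a24 of the same group stood at 1.51 and 1.9 CPM in WT/AD and at 5.45 and 0.18 CPM in cKO/AD, so 1 library decided its mean.

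Of the amino acid and carnitine carriers, Slc25a38, which supplies glycine for heme synthesis, fell from 60.8 and 56 CPM to 18.5 and 18.2 CPM (-1.67, SE 0.281, edgeR adjusted p = 0.00977). With the GC trend removed the value was -0.31 (edgeR adjusted p = 0.596). Slc25a29, which carries basic amino acids, had 633 and 728 counts in the WT/AD pair and 1 and 134 in the cKO/AD pair (edgeR adjusted p = 0.105). Its cKO/AD libraries differed from each other more than those of any other group and both lay below WT/AD. The carnitine-acylcarnitine carrier Slc25a20, which admits fatty acids for oxidation, stood at 18.7 and 16.1 CPM in WT/AD and at 27.8 and 23.1 CPM in cKO/AD (0.54, SE 0.294, edgeR adjusted p = 0.231). The iron carriers Slc25a28 and Slc25a37 (mitoferrins) and the uncoupling protein relatives Slc25a14, Slc25a27 and Slc25a30 did not pass, and Slc25a30 was at 63 CPM in the first and 14.8 CPM in the second cKO/AD library.

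Slc25a46, an outer membrane protein involved in mitochondrial fusion and fission rather than transport, rose from 49.2 and 66.6 CPM to 185 and 148 CPM (1.52, SE 0.229, edgeR adjusted p = 0.00761). Both cKO/AD libraries lay above all 6 other libraries. With the GC trend removed its log2 fold change was 0.78 and it kept the call (edgeR adjusted p = 0.047). Among carriers whose substrate is less settled, Slc25a34 had 69 and 62 counts in WT/AD and 0 in both cKO/AD libraries. That is at least 34.7-fold lower on the same limit of 3 counts for the pair (edgeR adjusted p = 0.0303, and 0.0804 with the GC trend removed). WT held 19 and 100 counts and cKO 6 and 41, and the limit does not allow for such scatter between libraries. Slc25a45, the carrier with the second highest mean level per length, stood at 215 and 171 CPM in WT/AD and at 29.8 and 110.3 CPM in cKO/AD (-1.46, SE 0.506, edgeR adjusted p = 0.0837). The cKO/AD libraries were both lower, and they differed from each other by more than the WT/AD pair did.

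The direction of a carrier in cKO/AD went with the GC content of its transcript. The 8 members that fell had a GC content of 51.8% to 60.6%, the 2 that rose had 40.7% each, and the 35 that did not pass ran from 39.4% to 60.4%. Over all 45 tested members other than Slc25a22, the log2 fold change correlated with GC content at Pearson r = -0.415 and Spearman rho = -0.573. Over the 35 of them that reach a mean of 5 CPM, the values were r = -0.788 and rho = -0.744. These values describe genes measured in the same 8 libraries, which are not independent. With the trend of each library removed, r over these 35 was -0.0742. The correction takes out a trend fitted on expressed genes at large, carriers included, so this is no separate result.

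**Figure D4:**
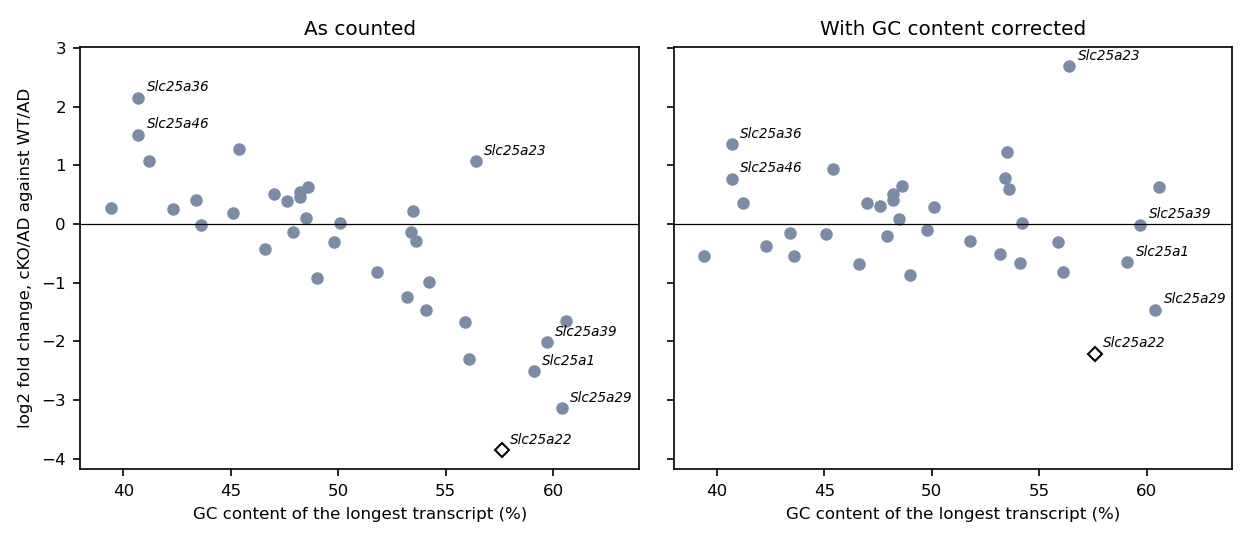
Log2 fold change of cKO/AD against WT/AD (vertical axis) against the GC content of the longest transcript in percent (horizontal axis) for 35 of the 36 carriers with a mean of at least 5 CPM, as counted on the left and with the GC trend of each library removed on the right. Points are genes and the open diamond is Slc25a22. On the left r = -0.788 over all 35 carriers other than Slc25a22, 1 of them not drawn. On the right, where the trend was taken out, r = -0.0742. There Slc25a22 stands at -2.21 and Slc25a23 at 2.69.

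Slc25a22 has a GC content of 57.6%, and 7 other tested members lie within 2 percentage points of it. Of these 7, 5 had a mean of at least 5 CPM, and their median log2 fold change between cKO/AD and WT/AD was -1.67 as counted and -0.31 with the GC trend removed. Over all 1725 tested genes in that GC range with the same minimum level the median was -1.40 as counted and 0.13 with the GC trend removed. Among the 36 carriers with a mean of at least 5 CPM, Slc25a22 had the lowest value both as counted (-3.85) and with the trend removed (-2.21), followed in each case by Slc25a29 at -3.14 and -1.46. This place describes the gene that the family was built around and is not evidence for it.

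**Figure D5:**
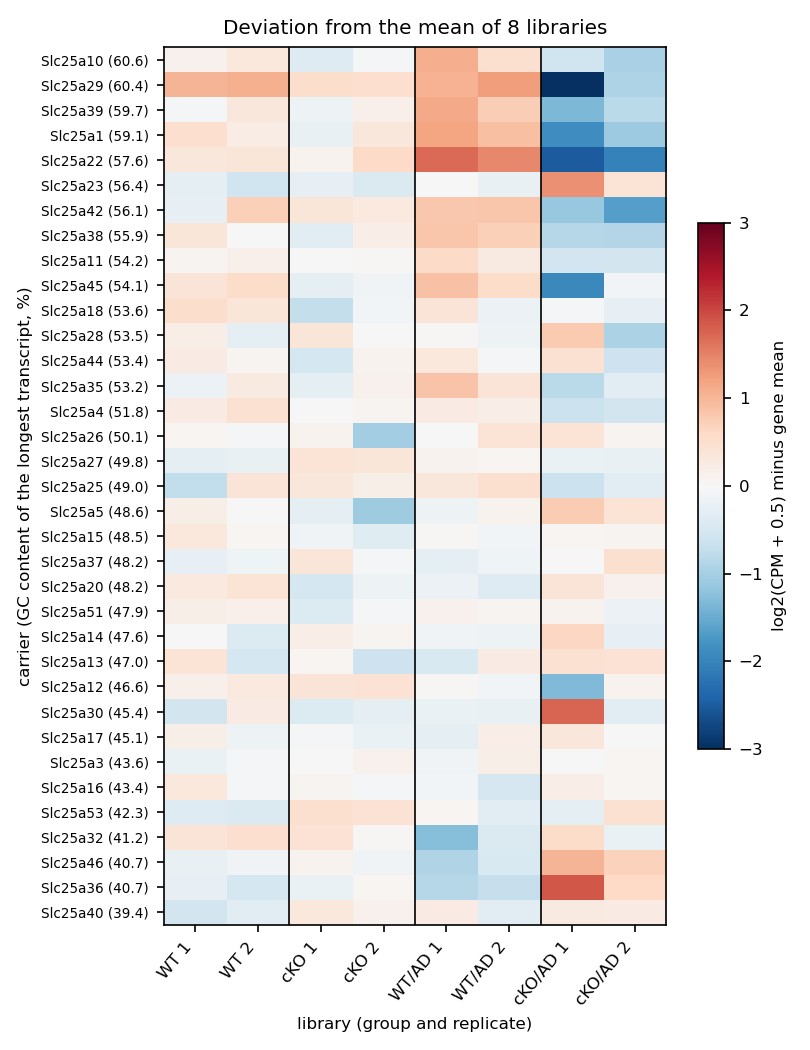
Deviation of each library from the gene's mean over 8 libraries, as log2(CPM + 0.5), for 35 of the 36 carriers that reach a mean of 5 CPM, in order of falling GC content (in parentheses, percent). Colours are limited to -3 and 3; most GC-rich carriers at the top were low in cKO/AD, Slc25a23 was high there, and GC-poor Slc25a36 and Slc25a46 were low in WT/AD and high in cKO/AD.

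With Calhm2 intact, the effect of disease is given by WT/AD against WT, and no carrier passed. Of the 45 members 0 rose and 0 fell by edgeR, against 0.0317% and 0.0136% of all tested genes, while 2 had an unadjusted p under 0.05, and DESeq2 and limma-voom called 0 as well (DESeq2 gave no adjusted p for 14). After removal of the GC trend 0 rose and 0 fell, against 0.0453% and 0.0272%. The groups did not overlap for 14 higher and 9 lower members (31.1% and 20%), against 26.5% and 25.9% of all tested genes. The smallest raw p values belonged to Slc25a39, Slc25a32 and Slc25a46. Slc25a39 was at 62.9 and 82 CPM in WT and at 142 and 109 CPM in WT/AD (log2 fold change 0.79, SE 0.273, edgeR adjusted p = 0.463). Slc25a32, which carries folate and FAD, was at 16.1 and 17.5 CPM in WT and at 4.69 and 8.91 CPM in WT/AD (-1.31, SE 0.468, edgeR adjusted p = 0.476). Slc25a46 was at 79.3 and 85.4 CPM and at 49.2 and 66.6 CPM (-0.51, SE 0.225, edgeR adjusted p = 0.563). The groups did not overlap for any of the 3. With the GC trend removed, the values of Slc25a39, Slc25a32 and Slc25a46 were 0.24, -1.05 and -0.24 (edgeR adjusted p = 0.963, 0.703 and 0.922). Leaving out either cKO/AD library, which enters this test through the shared spread, brought Slc25a39 and Slc25a32 past the threshold as counted. The share of all tested genes that passed in those fits is not given, so they are no result about these carriers.

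Without disease, the effect of the deletion is read from cKO against WT, and again 0 carriers rose and 0 fell by edgeR, as for all tested genes (0%). At an unadjusted p under 0.05 there were 3, and DESeq2 called 1 and limma-voom 0. After removal of the GC trend 0 rose and 0 fell, against 0% and 0.00453%. The groups did not overlap for 11 higher and 11 lower members (24.4% each), against 23.3% and 26% of all tested genes. Slc25a27, which encodes the uncoupling protein relative UCP4 known from neurons, was at 115 and 121 CPM in WT and at 188 and 182 CPM in cKO. Both cKO libraries were higher (log2 fold change 0.65, SE 0.164, edgeR adjusted p = 0.486), and the call by DESeq2 was for this gene (adjusted p = 0.00955). By edgeR it passed without the first (adjusted p = 0.0342) or the second (adjusted p = 0.0447) cKO/AD library. The summed level of 10 neuron markers, all detected in every library, was 1700 and 1767 CPM for WT, 2162 and 1952 CPM for cKO, 1600 and 1548 CPM for WT/AD and 2152 and 1934 CPM for cKO/AD, and its part in this result was not tested. Slc25a27 stood at 122 and 121 CPM in cKO/AD. Slc25a5 was at 75.9 and 67.6 CPM in WT and at 55 and 31.6 CPM in cKO, and Slc25a20 at 26 and 28.4 CPM and at 14.6 and 18.8 CPM. Both were lower in both cKO libraries (-0.73 and -0.71, edgeR adjusted p = 0.687 for each).

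Slc25a18, a carrier gene known from astrocytes, was at 17.1 and 15.2 CPM in WT and at 6.89 and 11 CPM in cKO (-0.85, SE 0.417, edgeR adjusted p = 0.714). The 10 astrocyte markers summed to 2035 and 2107 CPM in WT and to 1320 and 1300 CPM in cKO, so both were lower in cKO, and the part of astrocyte RNA in the value of Slc25a18 was not tested. Slc25a12 was at 22.3 and 24.4 CPM in WT and at 26.2 and 27.2 CPM in cKO, and Slc25a13 at 25.1 and 12.8 CPM and at 19.5 and 12 CPM. Neither differed beyond its error (edgeR adjusted p = 0.993 and 0.984).

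The comparison of cKO/AD with cKO asked what disease changed in the absence of Calhm2. By edgeR 0 of the 45 carriers rose and 0 fell, against 0.0634% and 0.154% of all tested genes (0.217% in either direction). Both counts, once the GC trend was removed, were again 0, against 0.0498% and 0.0634%. The groups did not overlap for 8 higher and 18 lower members (17.8% and 40%), against 20.3% and 31.1% of all tested genes. At an unadjusted p under 0.05 there were 13, and DESeq2 called 4 higher and 7 lower, while limma-voom called 0 in each direction. Slc25a1 was at 35.5 and 52.6 CPM in cKO against 11.1 and 19.2 CPM in cKO/AD, and Slc25a42 at 20.9 and 19.7 CPM against 7.04 and 4.73 CPM (-1.54 and -1.79, edgeR adjusted p = 0.0648 and 0.0692). Slc25a5 was at 55 and 31.6 CPM in cKO and at 114 and 89.3 CPM in cKO/AD (1.23, edgeR adjusted p = 0.0725). None of the 3 pairs of groups overlapped, and with the GC trend removed the value of Slc25a5 was 1.33 and those of Slc25a1 and Slc25a42 were -0.40 and -0.86.

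The interaction asked whether the difference made by the deletion depended on disease. By edgeR 0 of the 45 carriers passed in either direction, against 0.00905% positive and 0.0181% negative among all tested genes, and 14 had an unadjusted p under 0.05. DESeq2 called 4 positive and 6 negative, and limma-voom 0 and 2. Again 0 passed once the GC trend was removed, against 0.0181% and 0.00453%. The 3 with the smallest raw p were Slc25a39 (-1.87, SE 0.388, edgeR adjusted p = 0.0642), Slc25a1 (-2.21, SE 0.467, edgeR adjusted p = 0.0653) and Slc25a46 (1.37, SE 0.318, edgeR adjusted p = 0.0743). Once the trend was removed, these were -0.09, -0.55 and 0.77. Slc25a22 had an interaction of -3.85 as counted and -2.43 with the GC trend removed, described only. In 9 of the 45 carriers (20%) both WT/AD libraries were above both WT libraries and both cKO/AD libraries below both cKO libraries, a pattern held by 11.6% of all tested genes. The reverse pattern was held by 4 of the 45 (8.89%: Slc25a15, Slc25a20, Slc25a36 and Slc25a46), against 7.88% of all tested genes.

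Carriers that bear other symbols were read beside the family. Ucp2, which encodes an uncoupling protein of the same family that is abundant in immune cells, stood at 165 and 168 CPM in the WT pair, 91.8 and 151 CPM in the cKO pair, 416 and 322 CPM in the WT/AD pair, and 60.2 and 82.4 CPM in the cKO/AD pair. As for Slc25a22, both WT/AD libraries were the highest and both cKO/AD libraries the lowest. Ucp2 fell in cKO/AD against WT/AD (-2.37, SE 0.296, edgeR adjusted p = 0.00642) and kept the call with the GC trend removed (-1.25, edgeR adjusted p = 0.0269). Mtch1, a carrier homologue of the outer membrane, fell as counted, from 40.1 and 35 CPM to 8.23 and 10.5 CPM (edgeR adjusted p = 0.00697) and not with the trend removed (-0.53, edgeR adjusted p = 0.301). Of the 4 tested genes of this list 0 rose and 2 fell, where 7.82% and 10.2% of all tested genes did.

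Of 13 glutamate and malate-aspartate shuttle enzymes 2 rose and 1 fell in cKO/AD against WT/AD (15.4% and 7.69%), against 7.82% and 10.2% of all tested genes, which on 13 genes is no result about the list. Glul, the glutamine synthetase, rose from 226 and 266 CPM to 591 and 409 CPM (1.03, edgeR adjusted p = 0.0221), and kept the call with the trend removed (1.14, edgeR adjusted p = 0.0434). Got2, the mitochondrial aspartate transaminase, fell from 183 and 138 CPM to 77.7 and 69.8 CPM (-1.12, edgeR adjusted p = 0.0136), and was at -0.04 with the trend removed. Glud1, the glutamate dehydrogenase, named after its values were seen, stood at 86 and 85.9 CPM in WT/AD and at 90.7 and 119 CPM in cKO/AD (edgeR adjusted p = 0.401).

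Other mitochondrial lists were read in the same comparison, in which 7.82% of all tested genes rose and 10.2% fell. With the GC trend removed these shares were 3.88% and 2.51%. On lists of 15 to 20 genes such calls, or their absence, are no result about a list. Of 20 other inner membrane transporters 4 rose and 1 fell (20% and 5%). The pyruvate carrier subunit gene Mpc1 rose from 11.4 and 18.8 CPM to 60.2 and 45.9 CPM (1.81, edgeR adjusted p = 0.0136, and 1.77 with the GC trend removed, edgeR adjusted p = 0.031). Mpc2, the other subunit of that carrier, named after its values were seen, went from 45.1 and 42.3 CPM to 29.2 and 23.7 CPM (-0.72, edgeR adjusted p = 0.0714) and fell with the trend removed (-1.31, edgeR adjusted p = 0.0275). Micu3 and Sfxn5 also rose and Letm1 fell, and of these Sfxn5 kept the call with the trend removed (1.99, edgeR adjusted p = 0.0429). Of 17 citric acid cycle genes 2 rose and 3 fell (11.8% and 17.6%). Dld and Sucla2 rose as counted and did not pass with the trend removed, while all 3 falls kept the call there, among them Idh3g and Sdhc, subunits of isocitrate and succinate dehydrogenase (-0.78 and -1.05, edgeR adjusted p = 0.0474 and 0.0313). Of 15 carnitine shuttle and beta-oxidation genes 3 rose and 3 fell (20% each). Crat, the carnitine acetyltransferase, fell from 202 and 202 CPM to 19.5 and 51.9 CPM (-2.50, edgeR adjusted p = 0.00964, and -1.66 with the trend removed, edgeR adjusted p = 0.0216). Of 17 import machinery genes 3 rose and 1 fell (17.6% and 5.88%), and Tomm7, a small subunit of the outer membrane import pore, kept its rise with the trend removed (2.17, edgeR adjusted p = 0.0298). Of 16 ATP synthase genes 0 rose and 3 fell (0% and 18.8%), with no ATP synthase gene called once the trend was removed. The list medians lay between -0.95 and 0.16 on the log2 scale, beside -0.14 over all tested genes, and in the other 4 comparisons no gene of these lists passed.

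Markers of other cell types differed between the groups beside these results. The 10 endothelial markers summed to 711 and 722 CPM for WT, 211 and 217 CPM for cKO, 338 and 292.5 CPM for WT/AD, and 233 and 164 CPM for cKO/AD. The 10 oligodendrocyte markers summed to 4539 to 6546 CPM in WT, cKO and WT/AD and to 9881 and 8087 CPM in cKO/AD. Against WT/AD, however, 5 of these 10 fell in cKO/AD and 1 rose, so the higher sum was not a rise of the whole list. The 10 neutrophil markers summed to 3012 and 3115 CPM in WT and to 1031 to 1535 CPM in the other groups, and the mural and fibroblast markers to 1258 and 1278 CPM in WT and to 271 to 584 CPM in the others. The 9 erythroid markers in the table summed to 6.25 to 22.3 CPM, near 0 beside the rest, in libraries where the glycine carrier Slc25a38 of heme synthesis stood at 18.2 to 60.8 CPM. Of the neutrophil markers 1 was at 0 in the first cKO/AD library, of the mural and fibroblast markers 1 in the first cKO and 1 in the first cKO/AD library, and of the erythroid markers up to 6. Between cKO/AD and WT/AD, where 10.2% of all tested genes fell and 7.82% rose, 6 microglia, 5 oligodendrocyte, 3 endothelial, 3 mural and fibroblast, 2 neutrophil, 2 neuron, 1 astrocyte and 0 erythroid markers fell. In the same comparison 1 oligodendrocyte and 1 neuron marker rose. The part of these cells in the values of the carriers was not tested.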

How the data were processed

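RNA from 8 microglia libraries (1 ug of total RNA each, Illumina TruSeq, per the labels' protocols) was compared over 4 groups of 2. The authors deposited whole-number read counts per gene, with mm9 named as the genome build per the submitters' processing notes. For aligner, counter and strand, no name: not given in the sources used here. Totals of 18218165 to 25774587 counts leave carriers under 1 CPM imprecise.

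Counts were tested with edgeR 4.0.16 (R 4.3.3): TMM scaling, its expression filter, 1 mean per group in a fit of all 8 libraries with 4 residual degrees of freedom, two-sided quasi-likelihood tests, and Benjamini-Hochberg adjustment over 22089 genes at 0.05. Only the edgeR test of cKO/AD against WT/AD, with and without the GC correction, was also run on simulated counts. DESeq2 1.42.0, limma 3.58.1 (voom), other scalings and filters, fits of the compared groups alone, replicate blocks, a GC correction and leaving out each library were the alternatives. The GC correction removed from each library a loess trend (span 0.4) on the GC content of each gene's longest GENCODE M21 transcript, fitted on genes above a mean log2 CPM of 2. Identifiers matched that annotation for 54587 of 55421 genes with version and for 55154 without; its build, GRCm38, is later than mm9, so no gene coordinates are given and promoter windows carry their own build.

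The members, roles and lists were chosen with earlier results of these data known. Named by rule were Slc25a22, the other glutamate and aspartate carriers, every member past the threshold, the 3 smallest raw p where fewer than 3 passed, the 5 highest members per length, and up to 4 called genes of each other list. Further members were named after their values were seen. Single genes that are not reported here stay in the counts of members and lists, and are left out of the figures.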

Additional observations from a re-analysis of the deposited data

Results flagged for a closer look

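Slc25a22 differed between genotypes in its change with disease. Both WT/AD libraries lay above both WT libraries (log2 difference 1.22), and both cKO/AD libraries lay below both cKO libraries (-2.63), so the effects in the wild type and in the knockout had opposite directions in every library. The difference of the 2 effects was -3.8531 on the log2 scale, and -2.43 with the GC trend removed. This difference was not tested here, because the family was chosen with it known. The same opposite directions in every library were held by 9 of the 45 other tested carriers (20%) and by 11.6% of all tested genes.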

How the results depend on the processing

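In cKO/AD against WT/AD, the 2 rises became 4 with no filter, 0 in a fit of the compared groups alone, 1 with the replicate block and GC correction together (Slc25a23, while the calls of Slc25a36 and Slc25a46 were lost), and 0 to 9 with a library left out. The 8 falls became 0 in the fit of the compared groups alone, 0 with the GC correction, 0 with block and GC correction, 14 by DESeq2, and 0 to 15 with a library left out. The replicate numbers share only a number (correlations of deviations -0.0334 to 0.0611), and the replicate block alone kept all 10 calls and added Slc25a23. Among the members that passed, Slc25a11 lay near 0 with the GC correction (0.0201, and 0.00599 with the block). The sign of Slc25a10 turned there (0.64, and 0.58 with the block). In WT/AD against WT, 1 rose and 1 fell in the fit of the compared groups alone, and 0 to 1 rose and 0 to 2 fell with a library left out. In cKO against WT, 1 rose by DESeq2 and 0 to 1 with a library left out. In cKO/AD against cKO, rises numbered 5 with no filter, 4 by DESeq2 and 0 to 5 with a library left out, and falls 5 with no filter, 1 with a stricter filter, 7 by DESeq2 and 0 to 11 with a library left out. In the interaction, positive calls numbered 3 with no filter, 4 by DESeq2 and 0 to 8 with a library left out, and negative calls 5 with no filter, 2 with a stricter filter, 6 by DESeq2, 2 by limma-voom and 0 to 12 with a library left out. The log2 difference of Slc25a22 with the GC correction was 0.80 in WT/AD against WT, -2.21 in cKO/AD against WT/AD, -1.63 in cKO/AD against cKO and -2.43 in the interaction. With a library left out it ran from 1.09 to 1.35, -4.13 to -3.59, -2.92 to -2.37 and -4.14 to -3.62 in that order, and from -0.23 to 0.23 in cKO against WT, where the sign turned without the first WT library (-0.0070) and without the second cKO library (-0.23). Without TMM the median over all genes moved by 0.15 in cKO against WT, where the family median turned to 0.02, by -0.22 in cKO/AD against cKO and by -0.21 in the interaction. Apart from the GC correction and the sets of samples, the cause of these changes was not tested. Where a fit's share of all tested genes is not given above, its counts here are no result about the carriers.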
